A study of Mus musculus with 6 samples.

Results

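Genes of an inflammatory chemokine system were followed across the bone marrow-derived macrophage (BMDM) libraries of the study. They were the 5 CC chemokine ligands Ccl3, Ccl4, Ccl5, Ccl6 and Ccl9 and the 2 receptors Ccr1 and Ccrl2, taken by their gene symbols from the 54446 genes counted. All 7 had at least 10 counts in every library, a level that 14917 genes reached in at least 1 library. The BMDMs came from the marrow of male BALB/c mice of 6 to 8 weeks, cultured for 7 days with 20% L929-conditioned medium, a source of CSF-1. They were left unpolarized (M0) or polarized for 24 hours. M1 cells received LPS at 50 ng/mL together with IFN-γ at 20 ng/mL, and M2 cells received IL4 at 20 ng/mL. Regorafenib, a multikinase inhibitor, was given at 1 µM from 1 hour before polarization, and the control cells of each state received DMSO. For the unpolarized M0 cells the study text gives no separate dose or timing of the drug. The study used these libraries to ask how regorafenib acts on macrophage polarization. There was 1 library for each of the 6 conditions, so no difference below has a replicate check, and the labels do not say how many animals a library holds.

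CC chemokines are small secreted proteins that draw leukocytes along a gradient through G protein-coupled receptors. Ccl3, Ccl4 and Ccl5 are induced in macrophages by microbial products and draw monocytes, T cells and NK cells, and Ccl3 and Ccl5 act in part through Ccr1. Ccl6 and Ccl9 are rodent chemokines that macrophages release without stimulation, and Ccl9 acts through Ccr1. Ccrl2 is an atypical receptor that binds chemerin, displays it to neighbouring cells and does not signal through G proteins.

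The 5 ligand genes lay within 138906 bases of mouse chromosome 11 (GRCm38, Gencode annotation). Ccl5 (ENSMUSG00000035042.2) spanned positions 83525778 to 83530518, Ccl9 (ENSMUSG00000019122.8) spanned 83572919 to 83578636, and Ccl6 (ENSMUSG00000018927.3) spanned 83587882 to 83593087, all on the minus strand. Ccl3 (ENSMUSG00000000982.5) spanned 83647844 to 83649355 on the minus strand, and Ccl4 (ENSMUSG00000018930.3) spanned 83662584 to 83664683 on the plus strand. Ccl9 and Ccl6 were 9245 bases apart, and Ccl3 and Ccl4, which point away from each other, were 13228 bases apart. Both receptors were on the minus strand of chromosome 9, Ccrl2 (ENSMUSG00000043953.12) at 111054486 to 111057519 and Ccr1 (ENSMUSG00000025804.5) at 123962124 to 123968692. None of the 7 genes shared a 100-base exon word, the length of 1 read, with another gene (0 words for each). Ccl6 was overlapped on the opposite strand by E230016K23Rik, without shared exon bases, and that gene held 3 to 18 counts in a library.

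The 250 bases before the transcription start are shown for 4 genes whose levels ran differently over the 6 libraries, to set the sequence next to its gene's pattern. They were read on the gene's strand from RefSeq on GRCm38.p6, which gave an entry for 5 of the 7 genes, not for Ccl4 and Ccl5. Capitals mark the motif matches. They are the PU.1 core in Ccl3, the TATA box, AP-1 site and kappaB consensus, in that order, in Ccl9, and the kappaB consensus in Ccrl2. No motif matched in Ccl6.
Ccl3, chr11:83649379-83649628: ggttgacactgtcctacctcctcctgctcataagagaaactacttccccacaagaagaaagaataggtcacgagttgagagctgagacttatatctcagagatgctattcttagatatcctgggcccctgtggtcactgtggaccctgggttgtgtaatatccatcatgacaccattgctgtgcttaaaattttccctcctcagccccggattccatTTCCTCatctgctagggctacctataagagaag
Ccl9, chr11:83578637-83578886: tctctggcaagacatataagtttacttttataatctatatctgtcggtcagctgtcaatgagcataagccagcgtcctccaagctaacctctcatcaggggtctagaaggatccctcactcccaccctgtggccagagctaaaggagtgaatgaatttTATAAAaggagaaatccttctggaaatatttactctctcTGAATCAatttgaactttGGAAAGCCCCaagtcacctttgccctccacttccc
Ccl6, chr11:83593088-83593337: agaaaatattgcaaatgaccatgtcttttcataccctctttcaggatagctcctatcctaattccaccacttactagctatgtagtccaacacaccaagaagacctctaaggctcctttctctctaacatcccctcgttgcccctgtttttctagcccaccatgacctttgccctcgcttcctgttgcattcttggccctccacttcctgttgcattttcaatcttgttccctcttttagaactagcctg
Ccrl2, chr9:111057519-111057768: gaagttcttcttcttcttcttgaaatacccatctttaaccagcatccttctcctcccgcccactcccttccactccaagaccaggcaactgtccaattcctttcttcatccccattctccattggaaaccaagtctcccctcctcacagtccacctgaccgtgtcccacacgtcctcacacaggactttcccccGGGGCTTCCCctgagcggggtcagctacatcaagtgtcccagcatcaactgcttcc

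The kappaB consensus, the site of NF-kB dimers, was met on the opposite strand at -35 to -26 of Ccl9 (GGAAAGCCCC as printed) and, on the gene's strand, at -56 to -47 of the most upstream of the 3 listed Ccrl2 starts (GGGGCTTCCC). On both strands it was present in 3.9% of the 32851 promoters of the same length. The AP-1 site (TGANTCA), at -53 to -47 of Ccl9, was present in 6.75% of promoters, and the TATA box (TATAAA, given strand), at -92 to -87 of Ccl9, in 7.59%. The PU.1 core (GAGGAA, both strands) stood at -33 to -28 of Ccl3 and at -129 to -124 of Ccr1, and in 23.3% of promoters. The other 2 Ccrl2 starts held a CRE half-site (TGACG), as did 17.8% of promoters. The ISRE core (2.98% of promoters), the C/EBP core (TTGCNNAA, 9.56%), the STAT GAS element (TTCNNNGAA, 7.02%) and the STAT6 site (5.85%) had no match in the 5 genes. A match is a run of letters and does not show that a factor bound there.

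The libraries held 25359309 to 34898342 counts. Counts were scaled with edgeR's trimmed mean of M-values (TMM) to CPM, the counts in each 1e6 counts of a library, with factors of 0.820 to 1.12 that were lowest in the 2 M1 libraries. A ratio is the log2 ratio of these CPM values in 2 libraries, and its interval is a 95% conditional exact binomial interval that covers counting error only. A gene counts as past 2-fold at a log2 ratio of at least 1 in either direction, with at least 10 counts in 1 of the 2 libraries. The 7 macrophage markers (Adgre1, Csf1r, Cd68, Itgam, Fcgr1, Mertk and Lyz2) were present in every library. Their summed level, mostly Lyz2, was 29887 CPM in control against 48227 with regorafenib in M0, 27564 against 29752 in M1 and 21598 against 33338 in M2. With regorafenib Fcgr1 was lower past 2-fold in M0 (log2 -1.48), M1 (-1.23) and M2 (-1.25), and Mertk was higher in M0 (1.59) and M2 (1.34). The M1 markers summed to 477430 and 308601 counts in the M1 libraries and to 70 to 514 counts in the others. In M1, Nos2 had 410649 counts in control and 221627 with regorafenib. Il12b (10147 and 26829), Il6 (37404 and 39074), Cxcl9 (15565 and 16548) and Cxcl10 (3665 and 4523) had more counts with the drug. The M2 markers summed to 49372 and 18240 counts in the M2 libraries and to 124 to 874 counts in the others. In M2, Arg1 (21798 and 1017), Mrc1 (24237 and 12895) and Mgl2 (2017 and 305) had fewer counts with the drug. Retnla (941 and 3348) and Chil3 (379 and 675) had more. In bulk RNA, fewer cells of a type and less RNA per cell cannot be told apart.

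Without polarization or drug, Ccl9 was the most abundant of the 7 transcripts. Per length, in CPM per kilobase of exon, Ccl9 stood at 340 in the M0 control and Ccl3 at 118, followed by Ccl4 at 81.1, Ccl6 at 31.1 and Ccr1 at 16.9. Ccrl2 and Ccl5 were lowest, at 2.81 and 2.54, with overlapping counting intervals. Ccl9 was 81st among the 19195 genes with counts in this library and Ccl5 was 8765th. The order was the same in the M2 control but for Ccl5 and Ccrl2, whose intervals again overlapped, with Ccl9 at 488 CPM per kilobase and Ccl3, Ccl4, Ccl6 and Ccr1 at 61.4, 52.9, 43.8 and 32.4.

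In M1 the order was another one, led by Ccl5 and Ccl3. Ccl5 stood at 5743 CPM per kilobase in the M1 control and 8231 in M1 with regorafenib, where it was the 7th and the 6th most abundant gene. Ccl3 followed at 4685 and 7414, then Ccl4 at 512 and 794, Ccl9 at 286 and 511 and Ccrl2 at 130 and 133. Ccr1 stood at 27.7 and 16.2, and Ccl6 was the lowest of the 7 at 3.43 and 6.45. Every neighbouring pair in the M1 order was separated by more than the counting intervals. With regorafenib in M0, Ccl6 (30.0) and Ccl3 (28.8) came to lie side by side below Ccl9 (124), with overlapping intervals, and in M2 with regorafenib Ccl6 (65.7) stood above Ccl3 (20.3).

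**Figure D1:**
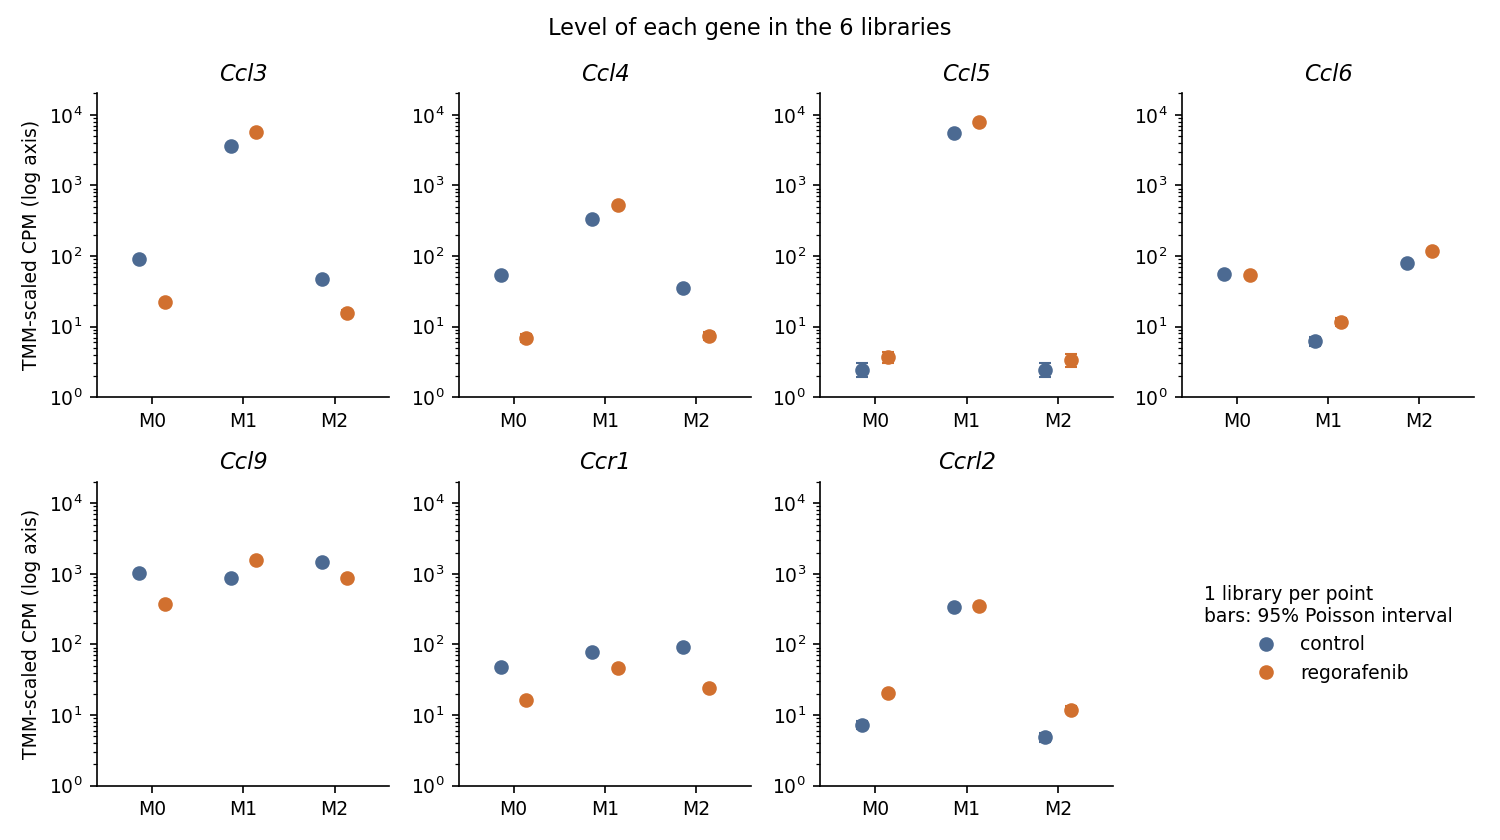
Level of the 7 genes in each of the 6 libraries, in TMM-scaled CPM on a log axis, with M0, M1 and M2 along the horizontal axis, control in blue and regorafenib in orange. Each point is 1 library and the bars are 95% Poisson intervals; Ccl5 lies between 2.44 and 3.67 CPM in M0 and M2 and at 5513 and 7901 CPM in M1, while Ccl9 stays between 379 and 1556 CPM in all 6 libraries.

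Taken as a mixture of ligands, M0 and M2 macrophages expressed mainly Ccl9, and M1 macrophages expressed mainly Ccl5 and Ccl3. Of the sum of the 5 ligands per length, Ccl9 made up 59.4% in the M0 control and 75.2% in the M2 control, but 2.55% in the M1 control. Ccl5 made up 51.1% and Ccl3 41.7% of the sum in the M1 control, against 0.445% and 20.6% in the M0 control. The sum itself was 572 CPM per kilobase in the M0 control, 649 in the M2 control and 11229 in the M1 control.

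With regorafenib the sum was smaller in M0 (197 CPM per kilobase) and M2 (389) and larger in M1 (16957). Ccl6 took 15.2% of it in M0 and 16.9% in M2, against 5.43% and 6.75% in the controls, and Ccl4 took 5.28% and 2.86%, against 14.2% and 8.15%. In M1 the make-up differed little between the libraries, with Ccl5 at 48.5% and Ccl3 at 43.7% under regorafenib.

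**Figure D2:**
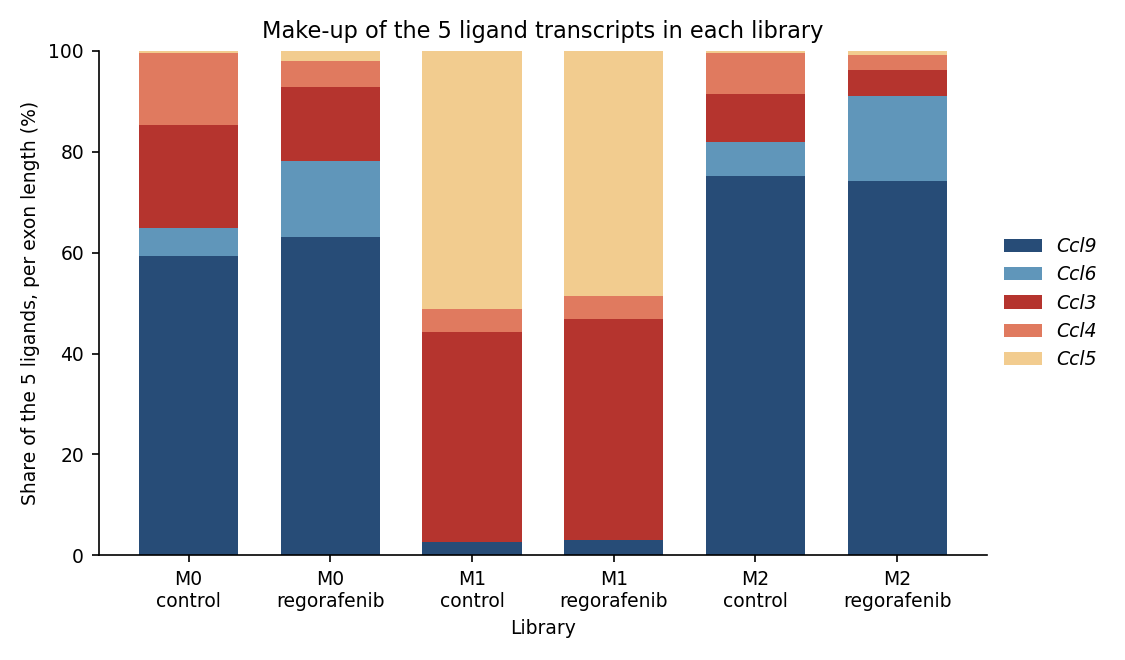
Share of each ligand in the sum of Ccl3, Ccl4, Ccl5, Ccl6 and Ccl9, in percent of CPM per kilobase of exon (bars start at 0 and add to 100), for the 6 libraries along the horizontal axis. Ccl9 fills 59.4% to 75.2% of the bar in the 4 M0 and M2 libraries and 2.55% to 3.01% in the 2 M1 libraries, where Ccl5 and Ccl3 fill nearly all of it.

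Ccl3 and Ccl4, neighbouring genes whose proteins draw monocytes and lymphocytes, were high in M1 and were lower with regorafenib in M0 and M2. Ccl3 had 2769 counts (90.1 CPM) in the M0 control and 727 (22.1 CPM) in M0 with regorafenib, 92724 (3589 CPM) and 136876 (5679 CPM) in M1, and 1717 (47.0 CPM) and 434 (15.5 CPM) in M2. Its log2 ratio of regorafenib to control was -2.03 (-2.15 to -1.91) in M0 and -1.60 (-1.76 to -1.45) in M2, which is 4.09-fold and 3.03-fold lower. In M1 it was 0.66 (0.65 to 0.67), higher with the drug and short of 2-fold. Both M1 libraries stood above the 4 others, and the regorafenib library was the lower one in M0 and M2 and the higher one in M1.

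Ccl4 had the same order of libraries within each state and the largest decrease of the 7. Its counts were 1644 (53.5 CPM) and 227 (6.89 CPM) in M0, 8730 (338 CPM) and 12631 (524 CPM) in M1, and 1274 (34.9 CPM) and 205 (7.33 CPM) in M2. It was 7.77-fold lower with regorafenib in M0 (log2 -2.96, -3.16 to -2.76) and 4.76-fold lower in M2 (-2.25, -2.47 to -2.04). Only 0.773% of the 13964 genes compared in M0 and 0.811% of the 13813 compared in M2 had a lower ratio. In M1 the ratio was 0.63 (0.59 to 0.67). The 2 regorafenib libraries of M0 and M2 came to nearly one level of Ccl4, with overlapping intervals.

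The balance between these neighbours shifted with state. Per length, Ccl3 exceeded Ccl4 by 1.45 times in the M0 control and 1.16 times in the M2 control, and by 9.15 and 9.34 times in the 2 M1 libraries. With regorafenib the factor was 2.76 in M0 and 1.82 in M2. Ccl3 was 39.8-fold higher in M1 than in M0 without regorafenib (log2 5.32, 5.26 to 5.37), and Ccl4 was 6.31-fold higher (2.66, 2.58 to 2.74). Between the regorafenib libraries the same contrast was 258-fold for Ccl3 (8.01, 7.90 to 8.12) and 76.1-fold for Ccl4 (6.25, 6.06 to 6.45). The drug ratio in M0 and these state ratios share the M0 libraries.

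Ccl5 (RANTES), a ligand of Ccr1 that draws T cells, was present in quantity in the M1 libraries and not elsewhere. It had 75 (2.44 CPM) and 121 counts (3.67 CPM) in M0, 142438 (5513 CPM) and 190430 (7901 CPM) in M1, and 89 (2.44 CPM) and 94 (3.36 CPM) in M2. The 4 M0 and M2 libraries followed each other with overlapping intervals. M1 exceeded M0 by 2258-fold without regorafenib (log2 11.14, 10.81 to 11.49) and by 2153-fold with it (11.07, 10.81 to 11.34). The ratio of regorafenib to control was 0.59 (0.16 to 1.02) in M0, 0.52 (0.51 to 0.53) in M1 and 0.46 (0.03 to 0.90) in M2, short of 2-fold in each state. Ccl5 is also a product of T and NK cells. Of 10 T and NK cell markers, Cd3d, Cd3e, Cd3g, Cd8a, Cd8b1, Nkg7 and Ncr1 had 0 counts in every library, and the list summed to 0 to 22 counts, with its high value of 22 from Cd4 in M0 with regorafenib and 0 in M1 with regorafenib.

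Ccl6 and Ccl9, the pair of neighbouring rodent chemokines made by resting macrophages, differed between M1 and M0 and in their drug ratios in M0 and M2, and had like ratios for M2 against M0 and for the drug in M1. Ccl6 had 1714 (55.8 CPM) and 1773 counts (53.8 CPM) in M0, 159 (6.15 CPM) and 279 (11.6 CPM) in M1, and 2868 (78.6 CPM) and 3297 (118 CPM) in M2. It was the 1 gene of the 7 past 2-fold lower in M1 than in M0, by 9.07-fold without regorafenib (log2 -3.18, -3.42 to -2.95) and by 4.65-fold with it (-2.22, -2.40 to -2.03). Regorafenib and control did not differ beyond counting error in M0 (-0.05, -0.15 to 0.04). The regorafenib library was the higher one in M1 (0.91, 0.63 to 1.20) and in M2 (0.59, 0.51 to 0.66). In M1, 2.19% of the 13440 genes compared had a higher ratio.

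Ccl9 was abundant in every library. Its counts were 31779 (1035 CPM) and 12495 (379 CPM) in M0, 22493 (871 CPM) and 37510 (1556 CPM) in M1, and 54267 (1486 CPM) and 24557 (878 CPM) in M2. With regorafenib it was 2.73-fold lower in M0 (log2 -1.45, -1.48 to -1.42) and 1.69-fold lower in M2 (-0.76, -0.78 to -0.74), and it was higher in M1 (0.84, 0.81 to 0.86). M1 with regorafenib held the highest level of the 6 and M0 with regorafenib the lowest. Without regorafenib, M1 stood just under M0 (-0.25, -0.27 to -0.22), and with it M1 stood 4.11-fold above M0 (2.04, 2.01 to 2.07). Per length, Ccl9 exceeded Ccl6 by 10.9 and 11.2 times in the M0 and M2 controls, by 83.4 and 79.3 times in M1, and by 4.15 and 4.39 times in M0 and M2 with regorafenib.

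Ccr1, the receptor shared by Ccl3, Ccl5 and Ccl9, was lower with regorafenib in all 3 states. Its counts were 1472 (47.9 CPM) and 536 (16.3 CPM) in M0, 2024 (78.3 CPM) and 1104 (45.8 CPM) in M1, and 3356 (91.9 CPM) and 673 (24.1 CPM) in M2. The log2 ratio was -1.56 (-1.70 to -1.42) in M0, -0.77 (-0.88 to -0.67) in M1 and -1.93 (-2.06 to -1.81) in M2, that is 2.95-fold, 1.71-fold and 3.82-fold lower. In M2, 1.25% of the genes compared had a lower ratio. Without regorafenib M2 had the highest level and M0 the lowest, with log2 ratios to M0 of 0.94 (0.85 to 1.03) for M2 and 0.71 (0.61 to 0.81) for M1.

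Ccrl2 was high in M1, and its drug ratios in M0 and M2 were opposite in direction to those of Ccl3, Ccl4 and Ccl9. It had 224 (7.29 CPM) and 670 counts (20.3 CPM) in M0, 8742 (338 CPM) and 8312 (345 CPM) in M1, and 178 (4.88 CPM) and 335 (12.0 CPM) in M2. With regorafenib it was 2.79-fold higher in M0 (log2 1.48, 1.26 to 1.70) and 2.46-fold higher in M2 (1.30, 1.03 to 1.57). In M1 the libraries did not differ beyond counting error (0.03, -0.02 to 0.07). M1 exceeded M0 by 46.4-fold without regorafenib (5.54, 5.34 to 5.73) and by 17.0-fold with it (4.08, 3.97 to 4.20).

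**Figure D3:**
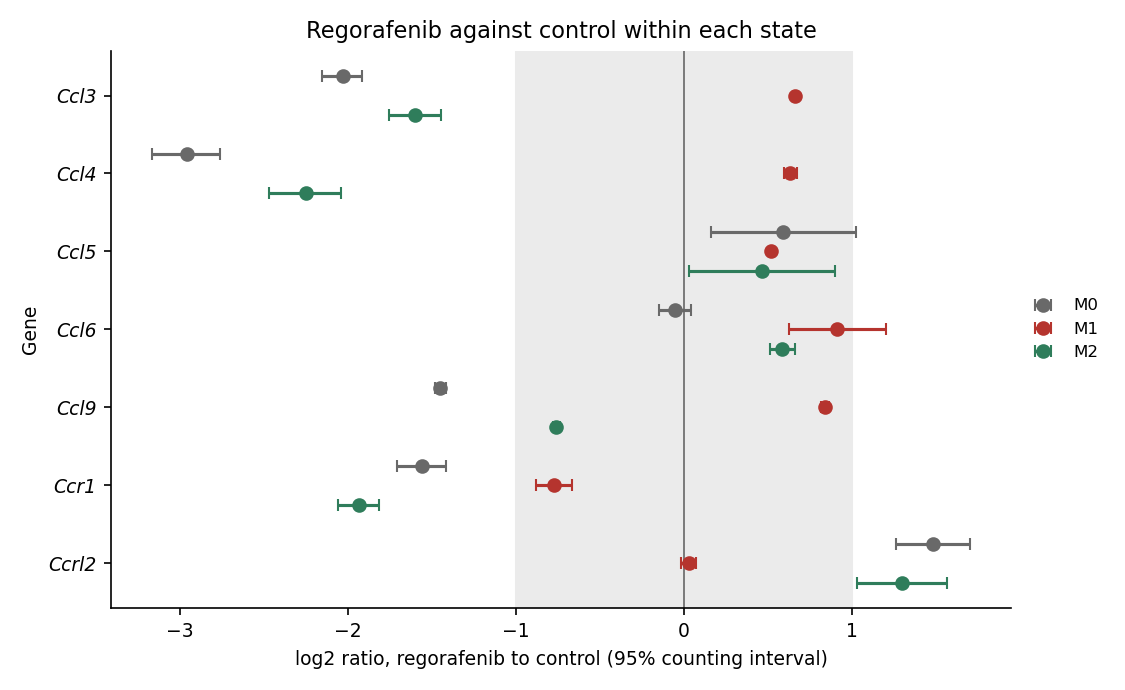
Log2 ratio of regorafenib to control for each of the 7 genes, with M0 in grey, M1 in red and M2 in green; bars are 95% counting intervals and the shaded band marks ratios within 2-fold. Ccl3, Ccl4 and Ccl9 lie left of 0 in M0 and M2 and right of 0 in M1, Ccr1 lies left of 0 in all 3 states, and Ccrl2 lies right of the band in M0 and M2.

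Counted over the 7 genes, 5 were past 2-fold with regorafenib in M0 (1 higher, 4 lower), as were 20.4% of all genes compared (9.47% higher, 10.9% lower). In M2 there were 4 (1 higher, 3 lower) against 11.2% of all genes (6.15% higher, 5.07% lower). In M1 there were 0, against 5.22% (1.76% higher, 3.46% lower), although the 5 ligands all had ratios of 0.52 to 0.91 with intervals above 0. The median ratio of the 5 ligands was -1.45 in M0, 0.66 in M1 and -0.76 in M2, beside medians over all genes compared of 0.00497, -0.02 and -0.03. Of markers of other cell types, fibroblast markers summed to 316 counts in control against 730 with regorafenib in M0, 633 against 760 in M1 and 359 against 536 in M2, with 0 of 6 at 0, while the sum of the neutrophil markers was 84.8 CPM against 158 in M0, 157 against 110 in M1 and 88.8 against 132 in M2, with Ly6g and Retnlg at 0. Of the neutrophil markers, Mpo had 2479 counts against 5124 in M0 and 2064 to 3646 in the other libraries, S100a8 had 1804 and 489 counts in the M1 control and regorafenib libraries and 39 to 123 in the others, and Camp had 108 and 91 in M1 and 0 to 1 in the others. Dendritic cell markers summed to 13 to 109 counts, B cell markers to 0 to 7, and mast cell, basophil and eosinophil markers to 0 to 1. Their part in these ratios, and that of the macrophage marker levels, was not tested.

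The same count for polarization was 5 of 7 past 2-fold between M1 and M0 without regorafenib (4 higher, 1 lower) and 7 of 7 with it (6 higher, 1 lower). Over all genes compared, 37.1% were past 2-fold without regorafenib (17.4% higher, 19.7% lower) and 37.9% with it (16.3% higher, 21.6% lower). Between M2 and M0 it was 0 of 7 without regorafenib, where 12.3% of all genes were past 2-fold (4.69% higher, 7.61% lower). With regorafenib it was 2 of 7, against 9.59% (4.41% higher, 5.18% lower), with Ccl6 at 1.13 (1.05 to 1.22) and Ccl9 at 1.21 (1.18 to 1.24). Ccr1, at 0.94, and Ccl3, at -0.94 (-1.03 to -0.85), came closest in the controls, and Ccl5 had a ratio of -0.00 (-0.46 to 0.46). Scaling by total counts in place of TMM lowered the median of all genes between M1 and M0 by 0.44 without regorafenib and by 0.41 with it, and no ratio of the 7 genes changed sign.

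**Figure D4:**
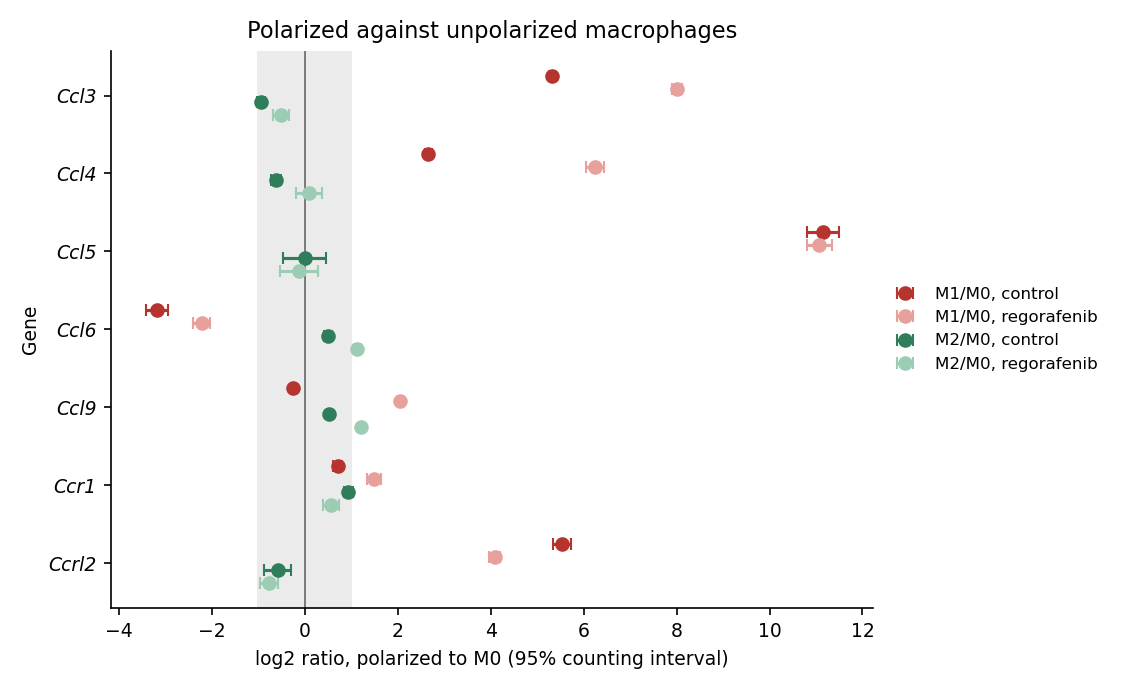
Log2 ratio of M1 to M0 (red) and of M2 to M0 (green) for each of the 7 genes, in the control libraries (dark) and in the regorafenib libraries (light); bars are 95% counting intervals and the shaded band marks ratios within 2-fold. Ccl5 lies near 11 in M1 in both, Ccl6 lies left of the band in M1 in both, and Ccl9 lies at -0.25 in the controls and at 2.04 with regorafenib.

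The only fit with more than 1 library on a side was an additive edgeR model of state and regorafenib over the 6 libraries. It had 2 residual degrees of freedom, and its residual reflects how far the states respond unequally to the drug, not a spread of replicates. In this fit, 6 of the 7 genes passed an adjusted p of 0.05 between M1 and M0, as did 36.7% of the 14110 genes tested (18.5% higher, 18.2% lower). The log2 change with its SE was 11.2 ± 0.316 for Ccl5 (edgeR adjusted p = 0.000189), 6.86 ± 0.817 for Ccl3 (adjusted p = 0.0025), 4.90 ± 0.424 for Ccrl2 (adjusted p = 0.00102) and 4.71 ± 0.957 for Ccl4 (adjusted p = 0.0133). With 1 library left out, the change was 2.87 (without the M1 regorafenib library) to 6.11 (without the M1 control library) for Ccl4, 5.47 to 7.96 for Ccl3 with the same libraries left out, and 4.19 (without the M1 control library) to 5.55 (without the M1 regorafenib library) for Ccrl2, and each of these passed. Ccl6 fell by 2.64 ± 0.272 (edgeR adjusted p = 0.00168), and its change was -3.04 (without the M0 regorafenib library) to -2.24 (without the M0 control library). Ccr1 rose by 1.19 ± 0.292 (edgeR adjusted p = 0.0252), a call that was lost without the M0 regorafenib library (1.07, adjusted p = 0.0566) or without the M1 regorafenib library (0.67, adjusted p = 0.0517). Without the M1 control library its change was 1.65. Ccl9 had a change of 1.01 ± 0.545 (edgeR adjusted p = 0.201), a value that rested on single libraries. It was 1.75 without the M0 control library (edgeR adjusted p = 0.0273) and 1.91 without the M1 control library (0.00955), but 0.26 without the M0 regorafenib library (0.752) and -0.03 without the M1 regorafenib library (0.949).

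Between M2 and M0, 0 of the 7 genes passed in the edgeR fit, with adjusted p of 0.388 to 0.983, against 0.198% of all genes (0.184% higher, 0.0142% lower). For regorafenib against control across the states, 0 of the 7 and 0 of the 14110 genes passed, while 1637 genes had an unadjusted p under 0.05 and DESeq2 called 297 genes. Ccr1 had the smallest unadjusted p of the 7, 0.00128, with a log2 change of -1.41 ± 0.241 (edgeR adjusted p = 0.302), and DESeq2 gave it an adjusted p of 0.000219. Without the M1 control library, which leaves the drug effect to M0 and M2, edgeR called 726 genes (4.97%), among them Ccl3, Ccl4, Ccr1 and Ccrl2 with adjusted p of 0.0262 to 0.0269. Without the M1 regorafenib library it called 814 genes (5.51%) and these 4 again, with adjusted p of 0.0238 to 0.0251. Without any of the 4 other libraries it called 0 to 4 genes and 0 of the 7, and the change of Ccl3 was -0.67 to -0.43, against -1.80 without either M1 library.

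The other genes of the CC chemokine system were taken from lists of general knowledge. Of 13 other CC ligands, 5 had enough counts in M0, where 1 was past 2-fold higher and 3 lower with regorafenib (9.47% and 10.9% of all genes). In M1 it was 2 of 7 higher and 0 lower (1.76% and 3.46% of all genes), and in M2 3 of 9 higher and 5 lower (6.15% and 5.07%). Ccl2, a monocyte attractant of the same chromosome, had 11274 counts in the M0 control against 149 with regorafenib, 19070 against 33467 in M1 and 30618 against 649 in M2, with ratios of -6.34, 0.91 and -5.18. Ccl2 thus lay lower in M0 and M2 and higher in M1, as Ccl3, Ccl4 and Ccl9 did, with larger ratios in M0 and M2. Ccl7, another monocyte attractant, had ratios of -6.37 in M0 and -5.98 in M2, but 5671 counts in the M1 control against 9429 with regorafenib. Ccl22, a ligand of Ccr4, had 1295 and 6114 counts in M1 (2.34), and Ccl24, a ligand of Ccr3, had 15 and 181 in M2 (3.98).

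Of 10 other CC receptors, 3 could be compared with regorafenib in M0 (1 higher, 2 lower past 2-fold), 7 in M1 (2 higher, 0 lower) and 3 in M2 (1 higher, 1 lower), beside the shares of all genes just given (9.47% higher and 10.9% lower for M0, 1.76% and 3.46% for M1, 6.15% and 5.07% for M2). Ccr2, the receptor of Ccl2, was higher with regorafenib in M0 (325 and 757 counts, 1.12) and M2 (280 and 434, 1.02). Ccr3, the eotaxin receptor, had 261 and 28 counts in M2 (-2.84). Ccr7, a lymph node homing receptor, had 780 and 827 counts in M1 and 2 to 9 elsewhere. Of 8 atypical receptors and chemerin genes, Cmklr1, the signalling receptor of chemerin, was the 1 with enough counts, at 85 counts against 153 in M0, 579 against 313 in M1 and 223 against 237 in M2, and chemerin itself (Rarres2) had 0 to 2 counts.

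Of 13 NF-kB, IRF and STAT genes, 8 were past 2-fold higher and 0 lower in M1 than in M0 without regorafenib, with a median ratio of 2.02. Over all genes compared, 17.4% were past 2-fold higher and the median was -0.05. The 8 included Nfkbiz (4.48, 4.32 to 4.65), Irf1 (4.15, 4.06 to 4.24) and Nfkbia (3.51, 3.46 to 3.57). With regorafenib, 0 of 13 were past 2-fold in M1, where 5.22% of all genes were. In M0, Relb was higher (1.23, 1.07 to 1.38) and Irf7 (-1.89, -1.97 to -1.82) was lower, and in M2 Relb (1.80), Irf1 (1.64) and Nfkbiz (1.14) were higher.

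The genes with the nearest pattern were ranked by the root mean square difference of centred log2(CPM + 1) over the 6 libraries, among 10675 protein-coding genes. Nearest to Ccl3 were Slc1a2 (0.394), Il1rn (0.440) and Tnf (0.536), and nearest to Ccl4 were Ccnd2 (0.255), Oasl1 (0.469) and Trem1 (0.513). Ccl3 and Ccl4 themselves differed by 1.22, so that Ccl4 was 67th in the ranking for Ccl3 and Ccl3 was 222nd in that for Ccl4. Nearest to Ccl5 were Il6 (0.291), Lcn2 (0.297) and Cxcl3 (0.337). Nearest to Ccl6 were Oxct1 (0.209), Map4k1 (0.216) and Dhcr7 (0.277), and nearest to Ccl9 were Rmi2 (0.111), Rgs1 (0.211) and Stap1 (0.218), so Ccl6 and Ccl9 had different neighbours (1.70 from each other). Rmi2 held only 15 to 137 counts in a library, so the added 1 CPM shrinks its ratios far more than those of Ccl9. Nearest to Ccr1 were Oaf (0.285), Cd72 (0.312) and Eif4e (0.333), and nearest to Ccrl2 were Pde4b (0.193), Prdx5 (0.318) and Thbs1 (0.350). Ccl9 and its receptor Ccr1 were the closest pair among the 7, at 0.580, but many other genes lay nearer to each. Ccr1 was 1383rd in the ranking for Ccl9, and Ccl9 was 208th in that for Ccr1. Their drug ratios in M1 had opposite signs (0.84 for Ccl9 and -0.77 for Ccr1). With 0.1 CPM added in place of 1 CPM, 12 of the 21 neighbours were kept.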

How the data were processed

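RNA was sequenced from mouse BMDMs in 6 conditions (TruSeq Stranded mRNA libraries, paired reads of 100 bases). The authors deposited raw counts per gene, made by trimming with cutadapt 2.4, mapping to GRCm38 and counting on a Gencode annotation with STAR 2.7.2a. Which strand column was counted is not given in the sources used here, so antisense reads could be included. The file holds 1 column of counts per condition, not normalized. Of 54446 gene IDs, 53229 matched the Gencode names used here with their version, 1180 without it, and 37 stayed unnamed. Each condition had 1 library, named by its labels, with 25359309 to 34898342 counts.

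Counts were scaled with TMM over the 6 libraries (edgeR 4.0.16, R 4.3.3). Ratios were compared in 7 pairs of libraries, for genes with at least 10 counts in 1 of them. They have 95% conditional exact binomial intervals, which cover counting error only, and a count of 0 was replaced by 0.5. The quasi-likelihood test of edgeR was run across the 6 libraries on genes kept by filterByExpr, with state and regorafenib as additive terms and a Benjamini-Hochberg adjusted p under 0.05. The fit was tested on simulated data made with additive effects only, which does not check it where states respond unequally to the drug. DESeq2 1.42.0, other scalings, thresholds and left-out libraries were alternatives. Levels of different genes were compared per kilobase of exon. Tables and sequences were handled in pandas 2.3.3, numpy 2.4.6 and scipy 1.17.1 under Python 3.11.15.

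The genes named are the 7 members, the 3 nearest genes of each by pattern and, from the lists, genes among the 3 with the largest ratio at 100 counts or more or at least 4-fold in a comparison. Cell type markers given by their counts, Rarres2 and E230016K23Rik were named outside this rule, after their values were seen. The members and lists were chosen with earlier results of these data known. Some genes of the lists are counted but not reported by name here.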

Additional observations from a re-analysis of the deposited data

Results flagged for a closer look

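The ratio of regorafenib to control had opposite directions in M1 and in another state, with counting intervals on either side of 0, in 6 of 21 comparisons of a gene between 2 states. Ccl4 had the widest difference, with its log2 ratio 3.59 (3.39 to 3.80) higher in M1 than in M0 and 2.88 (2.67 to 3.10) higher in M1 than in M2. For Ccl3 the difference was 2.69 (2.57 to 2.81) between M1 and M0 and 2.26 (2.11 to 2.41) between M1 and M2. For Ccl9 it was 2.29 (2.25 to 2.32) and 1.60 (1.57 to 1.63). No gene of the 7 had opposite ratios in M2 and M0 (0 of 7). These differences were not tested, since each condition has 1 library, and the intervals cover counting error only.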

How the results depend on the processing

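No ratio between 2 libraries that was past 2-fold changed sign under an alternative. Of 147 alternative ratios of single genes, 118 moved by less than their counting interval and 29 moved by more, 24 of these with total counts per library. Without a minimum count, the genes past 2-fold with regorafenib numbered 6688 in M0, 4139 in M1 and 5275 in M2 (2851, 701 and 1551 with it), and for polarization 9577 in M1 and 5387 in M2 without regorafenib (5263 and 1700) and 9484 and 4953 with it (5367 and 1328). Of the 7 genes, a 4-fold threshold left 2 in M0 and 1 in M2 with regorafenib, and 0 between M2 and M0 with regorafenib. A 1.5-fold threshold gave 5 in M1 with regorafenib and 3 between M2 and M0 without it, and total counts gave 1 there, Ccl3. In the additive fit, the genes called for regorafenib went from 0 to 297 with DESeq2, 333 with all genes that had any count, and 0 to 814 over the libraries left out in turn. For M2 against M0 they went from 28 to 412, 408 and 77 to 294, and for M1 against M0 from 5174 to 4118 to 5083 with a library left out. A left-out library leaves 1 residual degree of freedom and assumes that the lone library of its state varies like the others. Of the 189 refitted values of single genes, 169 kept their direction and side of the threshold, 12 passed newly, 2 were lost and 6 changed sign, all with a library left out and none past the threshold. Over the libraries left out, regorafenib against control of Ccl9 (-0.457) ranged from -1.09 to 0.0562, above 0 without either M0 library, and M1 against M0 of Ccl9 (1.01) from -0.0279, without the M1 regorafenib library, to 1.91. M2 against M0 ranged from -1.39 to 0.198 for Ccl3 (-0.775) and from -1.16 to 1.05 for Ccl4 (-0.382). Both were highest without the M0 control library, and Ccl4 was 0.0217 without the M2 regorafenib library. Differences between states, under total counts and DESeq2 size factors, were added after seeing the data and kept all 6 opposite directions. With the longest transcript in place of all exons, 36 of 42 places in the order of levels were kept. No paired analysis was possible because the groups share 1 replicate number only, apart from the block on state in the additive fit, which sets regorafenib against control within each state.

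Depth limits Ccl5 in M0 and M2, where 75 to 121 counts leave wide intervals. Without replicates, no ratio can be set against the spread between cultures.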
